A study of Rattus norvegicus with 12 samples.

Results

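Primary hepatocytes of Wistar rats were compared after 6 h with and without interferon alpha, an antiviral cytokine. Collagenase had been used to free the cells from the liver and a Percoll gradient to purify them. A day later rat interferon alpha was added at 250 U/ml, or left out, in 3 biological replicates. The comparison was chosen by sample title, 3 arrays labelled interferon alpha 6 h against 3 labelled control 6 h, which are 6 of the 12 Affymetrix arrays in the series. The other 6 arrays hold the same groups at 3 h and entered the fit for its estimate of the spread. Arrays that share a replicate number were treated as pairs, because the same number went with the same deviations from the group mean. The labels do not say whether a number stands for 1 animal. The age and sex of the animals and the dishes per replicate are not given in the sources used here.

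Interferon alpha binds a receptor of the chains Ifnar1 and Ifnar2, whose kinases Jak1 and Tyk2 phosphorylate Stat2. It joins Irf9 in a complex that binds a DNA motif, the interferon-stimulated response element, in front of many antiviral genes. Hepatocytes are the main cell of the liver and carry the receptor, and interferon alpha was long a treatment of viral hepatitis. The values here are levels of RNA on a log2 scale, so that 1 unit is a change of 2-fold. A probe set is a group of array probes for 1 transcript, and a gene with several is described by its brightest one unless another is named. In RNA from a whole culture, fewer cells of a type and less RNA per cell cannot be told apart. The 9 measured of 10 hepatocyte markers lay at levels of 11.3 to 14.7, Alb (albumin) highest, and 0 of the 9 were called. Of 73 markers of Kupffer, endothelial, stellate, bile duct, lymphoid and neutrophil cells, 56 lay below the median level of all probe sets, 5.20, and 0 were called. The brightest Kupffer marker, however, lay at 11.90, within the range of the hepatocyte markers, and the brightest bile duct marker at 11.28, just below it. Which cells this RNA came from was not tested. With 1.45% of all genes called higher, such counts of 0 are no result about the markers.

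At 6 h, 329 of 31042 probe sets were higher with interferon alpha, 1.06% of those tested, and 11 were lower, 0.0354%, together 1.1%, at an adjusted p under 0.05 in limma with the replicate number as a block. With a named gene behind them were 268 of the 329, standing for 214 genes, and 4 of the 11. By brightest probe set, 206 of 14217 genes (1.45%) were higher and 1 (0.00703%) was lower. Without the block the counts were 120 higher (0.387%) and 0 lower. Most of the rises were of middle size: 254 of the 329 were under 4-fold and 207 lay between 1.5- and 4-fold. All 3 treated arrays lay above all 3 controls for 285 of the 329, against 4.29% of all probe sets. In the lower set 6 of 11 had all treated arrays below all controls, against 3.46% of all. Every one of the 329 rose in all 3 pairs, as 13.2% of all probe sets did, and every one of the 11 fell in all 3 pairs, as 19% of all did. The call itself rests on these 6 arrays, so these shares describe it and do not support it. Leaving out single 6 h arrays gave 197 to 303 higher probe sets, and fewest without control 2 (197) and treated 2 (202). Leaving out all arrays of replicate 1, 2 or 3 gave 277, 127 and 99, and the 99 include 94 of the 329.

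**Figure D1:**
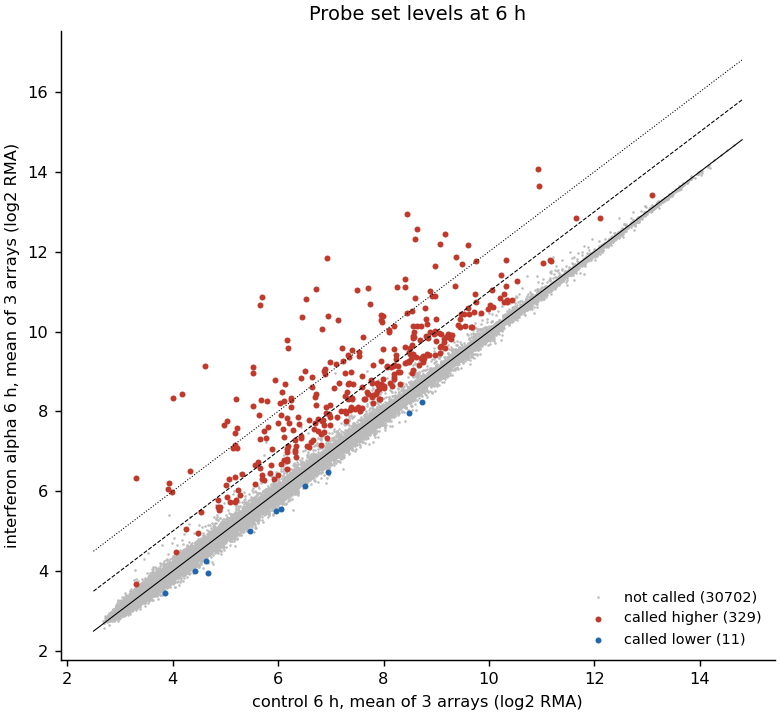
Mean level of each probe set in the 3 control arrays at 6 h (horizontal axis, log2 RMA) and in the 3 interferon alpha arrays (vertical axis, log2 RMA). The solid line marks equal levels, the dashed line a 2-fold and the dotted line a 4-fold rise. The 329 probe sets called higher (red) lie at all levels, 254 of them below the 4-fold line, and the 11 called lower (blue) lie close to the line of equal levels.

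The response element gives a first view of the genes that rose. Promoter sequences of 250 bases before to 50 after the start were taken from RefSeq, build GRCr8, for 181 of the 214 higher genes and 3 of the 4 lower ones. The core searched was TTTC, any 2 bases and TTTC again, on both strands, which reads as GAAA, any 2 bases and GAAA from the other side. It was present in 48 of the 181 promoters (26.5%), in 302 of 11516 promoters of measured genes without a called probe set (2.62%) and in 3.77% of all 27457 promoters. For this count by size, a gene was placed by the largest rise among its called probe sets, not by its brightest one. By that size the core was present in 9 of 14 promoters of genes raised at least 8-fold (64.3%) and 15 of 27 at 4- to 8-fold (55.6%). For smaller rises it was present in 9 of 42 at 2- to 4-fold (21.4%), 13 of 72 at 1.5- to 2-fold (18.1%) and 2 of 26 under 1.5-fold (7.69%). None of the 3 lower genes had it in this window. The 48 promoters held 57 matches, of which 40 had their centre within 100 bases before the start, 6 lay 100 to 200 before, 2 farther and 9 after it. A second motif, TTCNNNGAA, the gamma-activated site that STAT dimers bind, was present in 22 of the 181 (12.2%), against 6.90% of promoters without a called probe set. These are matches of letters and were not tested as binding sites.

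Each of the following 30-base stretches holds 1 match, in capitals, and is written 5′ to 3′ on the strand of the gene. They are shown because they run from a gene of the largest rises to genes that rose by less than 1.5-fold, with the same core throughout.
Ifit3 (chr1:241527272-241527301, + strand, centre 39 bases before the start): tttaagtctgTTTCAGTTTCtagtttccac
Rsad2 (chr6:48788248-48788277, - strand, 142 before): ctggttcaacTTTCATTTTCagaaaacaga
Tap1 (chr20:4668645-4668674, - strand, 116 before): cggtggctgcTTTCGGTTTCttcttcctct
Isg20 (chr1:142239957-142239986, + strand, 87 before): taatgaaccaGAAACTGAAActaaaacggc
Eif2ak2 (chr6:21941128-21941157, + strand, 11 before): agtccgccggGAAAACGAAAcagagagaac
Rbm43 (chr3:56813941-56813970, - strand, 32 before): acaggaactaGAAAACGAAAgtggaacctg
Ogfr (chr3:188080719-188080748, + strand, 9 before): cttcctcctcTTTCACTTTCctttccgcag
Nmi (chr3:56848624-56848653, - strand, 95 before): tgaaataaacGAAAGTGAAAgaacggcctg
Tapbp (chr20:4967884-4967913, - strand, 21 before): gcctttgaggGAAAATGAAAgtgaaaggaa
Psme2 (chr15:33052785-33052814, - strand, 48 before): cctggagagtGAAAGCGAAAgctggggctg
In the order printed, the log2 rises at 6 h were 4.49, 3.14, 2.35, 2.01, 1.97, 1.65, 0.99, 0.68, 0.54 and 0.44. Tapbp holds a second, overlapping match.

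Of the signalling chain itself, the parts that rose were those of the DNA-binding complex. Among 15 measured members of the receptor and JAK-STAT list, 2 were higher and 13 did not pass, with a median change of 0.00. Over all genes 1.45% were higher, the share to set beside this and the later list counts. Stat2 was at 9.11, 8.52 and 8.26 in control replicates 1 to 3 and at 9.91, 10.29 and 10.23 with interferon alpha, a difference of 1.51 ± 0.19 (SE, n = 3 pairs, as for all differences below; limma adjusted p = 0.00146). Irf9, its DNA-binding partner, went from 8.79, 8.47 and 7.94 to 9.52, 9.57 and 9.73, a difference of 1.20 ± 0.16. Neither gene's groups overlapped. The receptor chains Ifnar1 (-0.12 ± 0.09) and Ifnar2 (-0.11 ± 0.07) and the kinases Jak1 (-0.13 ± 0.08) and Tyk2 (0.05 ± 0.08) did not pass. Of 11 interferon regulatory factors and partners 3 were higher: Irf7, which drives further interferon genes, by 3.11 ± 0.34, Irf1 by 2.22 ± 0.29, and Irf9. Irf3, the factor that acts before any interferon is made, stood at -0.12 ± 0.07 and did not pass. Among 16 brakes on the pathway 2 were higher, Usp18, which blocks the receptor and removes ISG15, by 2.21 ± 0.30, and Trex1, a DNA exonuclease, by 1.81 ± 0.19. The inhibitor Socs1 stood at 0.10 ± 0.09 and Socs3 at -0.01 ± 0.13, and neither passed. Without the replicate block Irf1 missed the threshold (adjusted p = 0.061).

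Sensors of foreign RNA were raised, while their named adaptors, Myd88 apart, did not pass. Of 19 measured sensors and adaptors 7 were higher, against 1.45% of all genes, and 12 did not pass. Ddx60, a helicase that aids RNA sensing, had the largest difference, 4.26 ± 0.42, from 5.29, 4.16 and 3.07 to 8.35, 9.03 and 7.93. The RNA-binding helicase Znfx1 followed with 3.53 ± 0.29. The 3 cytoplasmic RNA receptors of 1 family lay close together: Ifih1 (MDA5) rose by 2.14 ± 0.21, Rig1 by 1.77 ± 0.20 and Dhx58 (LGP2) by 1.47 ± 0.17. Ifih1 had controls of 7.60, 7.46 and 7.16 and treated arrays of 9.15, 9.91 and 9.57. Trafd1, a feedback regulator of these pathways, rose by 1.37 ± 0.11, and Myd88, the adaptor of most Toll-like receptors, by 0.64 ± 0.11. Mavs, the adaptor of the RNA receptors, stood at -0.02 ± 0.08, Sting1, the adaptor of DNA sensing, at 0.05 ± 0.11 and Ripk1 at 0.09 ± 0.10, none of which passed. Myd88 missed the threshold without the block (adjusted p = 0.74) and without treated 2, control 2 or control 3 (0.0584 to 0.103).

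The effectors that act on RNA held some of the largest rises and also 2 large values that did not pass. Of 19 measured, 13 were higher, against 1.45% of all genes, and the list median was 1.61, against -0.02 over all genes. Cmpk2, a nucleotide kinase next to Rsad2 in the genome, rose by 4.90 ± 0.50, Ifit3 by 4.49 ± 0.48, Ifit2 by 3.27 ± 0.31 and Rsad2 (viperin) by 3.14 ± 0.33. Lower in the list stood Samhd1, which depletes deoxynucleotides (2.48 ± 0.21), the exonuclease Isg20 (2.01 ± 0.21), the kinase Eif2ak2 (PKR; 1.97 ± 0.20) and the oligoadenylate synthase Oas1a (1.61 ± 0.23). Helz2, a helicase, rose by 1.58 ± 0.13, Adar, which edits adenosine to inosine, by 1.27 ± 0.12, Slfn2 by 0.75 ± 0.16 and Shfl by 0.64 ± 0.11. Ifit1 did not pass at 2.37 ± 0.60 (adjusted p = 0.137), with pair differences of 3.02, 3.79 and 0.30. Oas1b did not pass at 1.48 ± 0.55 (adjusted p = 0.470), with pair differences of 0.58, 3.50 and 0.35. All 9 measured GTPases of the Mx, guanylate-binding and immunity-related families were higher, with a list median of 2.89 and a range of 2.23 (Mx2) to 4.33 (Mx1). Gbp2 and Gbp4 show what the pairing contributed. Gbp2 had controls of 6.49, 6.05 and 4.05 and treated arrays of 9.17, 10.37 and 7.36, a rise of 3.43 ± 0.28. Gbp4 went from 6.75, 7.11 and 3.98 to 8.70, 10.80 and 6.86, a rise of 2.84 ± 0.36 with overlapping groups, since replicate 3 was low in both. Without the block Gbp2, Gbp4, Gbp7, Samhd1, Oas1a, Shfl and Slfn2 missed the threshold (adjusted p 0.095 to 1). Among single 6 h arrays, Slfn2 was lost without any but control 3 (0.0551 to 0.243) and Shfl without control 2 or 3 (0.0616 and 0.0776).

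Proteins that block viruses at membranes were split. Of 14 measured 5 were higher, against 1.45% of all genes, and 9 did not pass, with a median of 0.16. Ncoa7, whose short form acts on endosomes, rose by 2.61 ± 0.40, the secreted lectin-binding protein Lgals3bp by 1.87 ± 0.20, Cnp, which limits virus assembly, by 1.52 ± 0.16, Ly6e by 1.28 ± 0.22 and Ifitm3 by 0.73 ± 0.12. Ifitm3 was already bright, at 12.56, 12.03 and 11.73 in the controls, and reached 12.89, 12.89 and 12.74. Bst2 (tetherin), at a control mean of 11.39 ± 0.42 (SD, n = 3), differed by 0.18 ± 0.09 and did not pass, and Ifitm2, at 4.80 ± 0.28, differed by -0.18 ± 0.07. Lgals3bp, Ly6e and Ifitm3 missed the threshold without the block (adjusted p 0.61 to 0.88). Ncoa7 was lost without control 2 (0.0613), and Ifitm3 and Ly6e without any of treated 2 and 3 and control 2 and 3 (0.0512 to 0.128).

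Genes on the list of ISG15 conjugation were raised on their brightest probe sets, and some of the PARP, TRIM and PML body genes with them. All 7 measured genes of this list were higher, against 1.45% of all genes, with a median of 1.77. That median is the value of Herc3, a ubiquitin ligase that the list includes. A second, dimmer probe set of Herc3 stood at 0.27 and did not pass (adjusted p = 0.575). ISG15 is a ubiquitin-like protein, and Isg15 itself went from 11.60, 10.61 and 10.66 to 13.38, 13.89 and 13.64, a rise of 2.68 ± 0.32. Its activating enzyme Uba7 rose by 1.66 ± 0.22, its conjugating enzyme Ube2l6 by 0.77 ± 0.13 and the ligase Herc6 by 2.05 ± 0.23. Of 13 PARP-family genes 5 were higher, within a narrow range: Dtx3l (2.26 ± 0.19), Parp14 (2.02 ± 0.24), Parp9 (1.98 ± 0.22), Parp12 (1.93 ± 0.18) and Parp10 (1.84 ± 0.17). Parp1 and Parp2, the DNA repair enzymes, both stood at -0.04 (SE 0.07 and 0.08) and did not pass. Dtx3l and Parp9 encode partners of 1 ligase complex. Of 21 TRIM ubiquitin ligases 5 were higher, with a list median of -0.04: Trim5 (1.42 ± 0.15), which recognises capsids, Trim34 (1.36 ± 0.17), Trim26 (1.07 ± 0.18), Trim25 (1.07 ± 0.16), which modifies RIG-I, and Trim14 (0.79 ± 0.13). Of 11 genes of PML nuclear bodies, nuclear spots that repress viral genomes, 4 were higher: Pml (2.18 ± 0.19), Sp110 (2.10 ± 0.27), Daxx (1.29 ± 0.13) and Sp140 (0.92 ± 0.12). Sp100 stood at 0.11 ± 0.11. Without the block Ube2l6, Daxx, Trim14 and Trim25 missed the threshold (adjusted p 0.051 to 0.85). Single 6 h arrays decided Ube2l6 and Trim26 (lost without treated 2, control 2 or control 3, among others) and Trim14 (lost without treated 2, treated 3 or control 3), at adjusted p of 0.0549 to 0.100.

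Genes that trim peptides and carry them to class I molecules were raised. Class I molecules show cell peptides to T cells, and of 20 measured genes of this list 7 were higher. Tap1, 1 chain of the peptide pump of the endoplasmic reticulum, rose from 8.40, 7.84 and 7.59 to 10.02, 10.63 and 10.22, by 2.35 ± 0.25. Its partner Tap2 rose by 0.82 ± 0.10, from 6.71, 6.01 and 5.79 to 7.27, 6.96 and 6.74. Nlrc5, the transactivator of class I genes, rose by 1.99 ± 0.21, the class I genes RT1-N3, RT1-N2 and RT1-T24-3 by 1.87 ± 0.22, 1.20 ± 0.12 and 0.95 ± 0.18, and Tapbp (tapasin) by 0.54 ± 0.09. Probes of the RT1 family can share sequence between members, so which of them rose is uncertain. B2m, the light chain of class I, was at 13.83 ± 0.03 in controls and 13.90 ± 0.04 with interferon alpha, and did not pass. The 3 inducible catalytic subunits of the immunoproteasome were all higher, Psmb9 by 1.33 ± 0.17, Psmb10 by 0.76 ± 0.11 and Psmb8 by 0.74 ± 0.10, as was the activator Psme2 by 0.44 ± 0.08. Psme1 stood at 0.25 ± 0.07 and did not pass. Of 29 constitutive proteasome genes 0 were called, with a median of -0.04 and a highest value of 0.24. With 1.45% of all genes called higher, the count of 0 is no result about these 29. Tap1 and Psmb9 start 457 bases apart on opposite strands. Of 479 pairs of measured genes that diverge from starts within 1000 bases, they are the only 1 with both genes called higher. This depends on the limit: Parp9 and Dtx3l, both called higher, also diverge, from starts more than 1000 bases apart. Pairs beyond the limit were not counted. Tap2, RT1-N2, RT1-T24-3, Tapbp, Psmb8, Psmb9, Psmb10 and Psme2 missed the threshold without the block (adjusted p 0.11 to 1). RT1-T24-3 was lost without treated 1 or 2 or control 1 or 2, Tapbp without treated 2 or 3 or control 2 or 3, and Psme2 without any single 6 h array but treated 1 (0.0572 to 0.192).

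Most measured secreted signals did not pass, though the shares called higher were above the 1.45% of all genes. Of 28 chemokines 2 were higher, Cxcl10 by 4.36 ± 0.49 and Cxcl11 by 2.70 ± 0.40, both ligands of Cxcr3, a chemokine receptor on T cells. Cxcl9, another ligand of that receptor, stood at 10.70 ± 1.25 (SD) in controls and 10.70 ± 1.28 with interferon alpha. Of 30 cytokines and receptors 4 were higher: Tnfsf10 (TRAIL), a death ligand, by 3.02 ± 0.37, Il7 by 1.21 ± 0.22, Il15 by 0.92 ± 0.17 and Il18bp, which neutralises interleukin 18, by 0.59 ± 0.11. Il7 and Il15 sustain lymphocytes. The controls of Il7 were 6.43, 7.09 and 6.23 and the treated arrays 7.27, 8.93 and 7.18. Those of Il15 were 4.90, 5.04 and 4.62 against 5.65, 6.39 and 5.27. The receptor Tnfrsf1b had a difference of 1.02 ± 0.22 and narrowly missed the threshold (adjusted p = 0.0583). Of 35 genes of cell death 7 were higher, Tnfsf10, Pml and Daxx among them, and further Casp8, the initiator caspase of death receptors (1.01 ± 0.14), Xiap, a caspase inhibitor (0.95 ± 0.18), Apaf1, the scaffold of the apoptosome (0.53 ± 0.08), and Ifi27l2b (0.34 ± 0.07). The inflammatory caspase gene Casp4 stood at 0.80 ± 0.19 and did not pass. Of 21 NF-kB targets 0 were called, which is no result about them, since only 1.45% of all genes were called higher. Tnfsf10, Il7, Il15, Il18bp, Daxx, Casp8, Xiap, Apaf1 and Ifi27l2b missed the threshold without the block (adjusted p 0.051 to 1). Without single 6 h arrays, treated 2 and control 2 among them for each, Il7, Il15, Il18bp, Xiap, Apaf1 and Ifi27l2b were lost (0.0509 to 0.204).

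**Figure D2:**
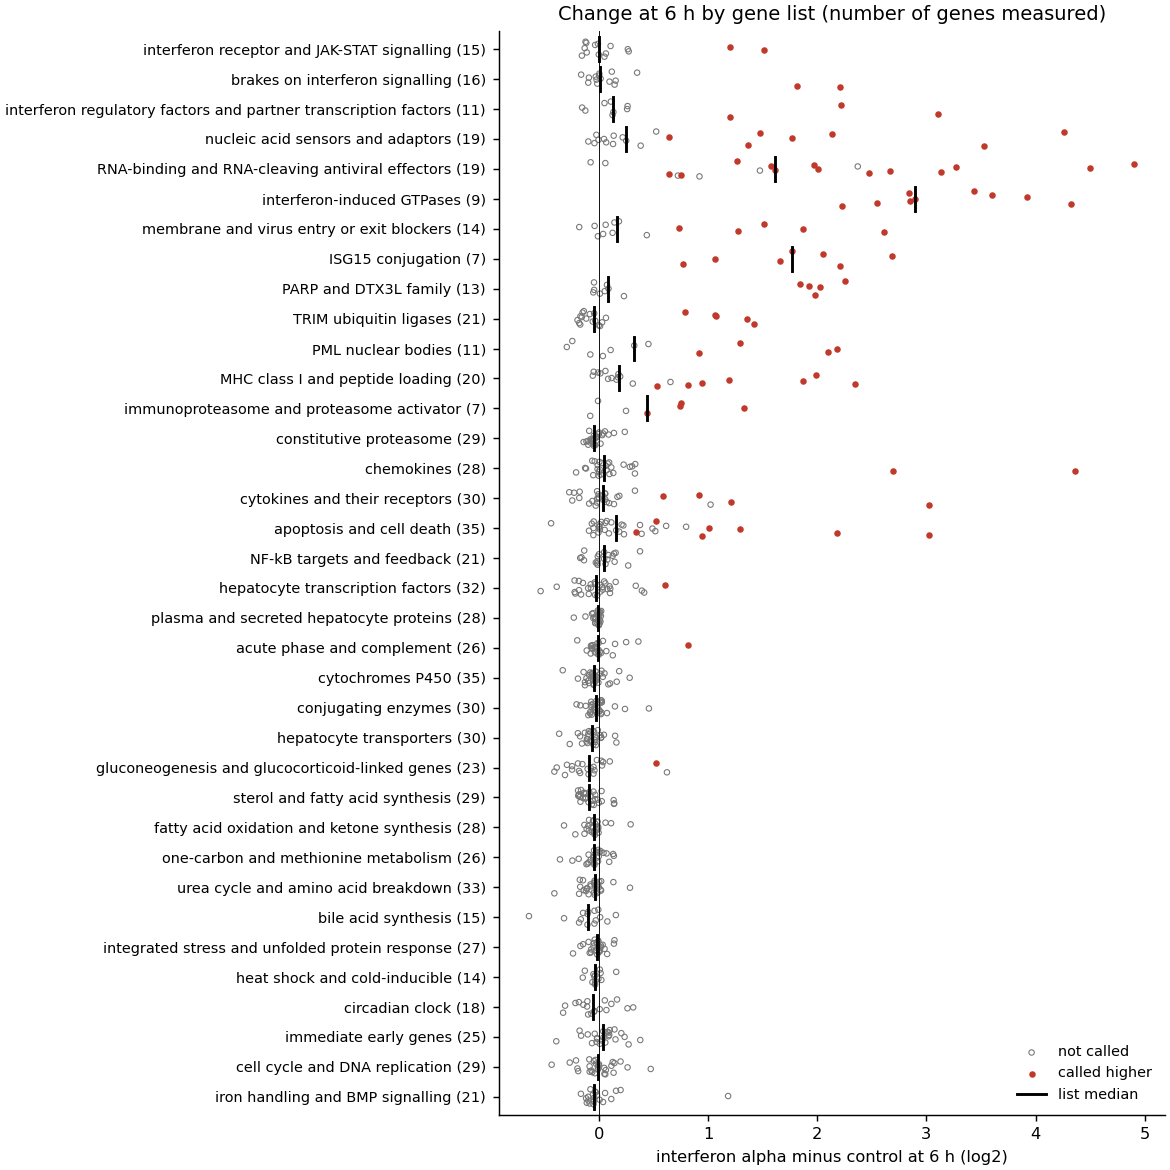
Difference between interferon alpha and control at 6 h (horizontal axis, log2) for each measured gene of 36 lists, with the number of genes in brackets. Red points are genes called higher, open grey points genes not called, and the black bar is the list median. Medians lie at 2.89 for the GTPases, 1.77 for ISG15 conjugation and 1.61 for RNA-directed effectors, and close to 0 for the lists of hepatocyte functions.

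Some of the most precise rises, at 4- to 8-fold, belonged to genes in none of the groups above. Mitd1, which acts with the ESCRT machinery in the last step of cell division, went from 6.02, 5.78 and 5.22 to 8.23, 8.35 and 8.27, a rise of 2.61 ± 0.19 and the lowest adjusted p of its band (0.000270). C1h19orf12, a membrane protein of mitochondria and endoplasmic reticulum, went from 7.28, 7.15 and 7.20 to 9.35, 9.90 and 9.54, a rise of 2.39 ± 0.21. In both genes the spread among controls was small beside the gap between the groups. A second, dimmer probe set of C1h19orf12 stood at 0.83 and did not pass (adjusted p = 0.174). Dtx3l, Samhd1, Pml and the GTPase Irgm (2.85 ± 0.25) complete the 6 genes with the lowest adjusted p of the band. Further genes here were picked after their values were seen. Mpeg1, a pore-forming protein of phagocytes, was bright at 10.55, 10.48 and 9.91 and rose to 11.53, 12.18 and 11.65, by 1.47 ± 0.18, which is under 4-fold. Lmo2, a transcription cofactor known from blood cells, went from 5.55, 5.93 and 5.44 to 7.50, 8.68 and 7.57, a rise of 2.28 ± 0.28. Rtp4, a chaperone of receptors, rose by 2.49 ± 0.30, Ifi44 by 2.56 ± 0.24, Ifi44l by 2.42 ± 0.25, the apolipoprotein L gene Apol9a by 2.44 ± 0.24 and Tor3a, an ATPase of the endoplasmic reticulum, by 2.18 ± 0.26. Markers of macrophages other than Mpeg1 were not called, 0 of 16 on that list, with differences of -0.13 to 0.37. With 1.45% of all genes called higher, that count is no result about the list. Without the block Samhd1, Rtp4 and Tor3a missed the threshold (adjusted p 0.051 to 0.095), and none of these genes was lost without a single 6 h array.

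In the band of 2- to 4-fold rises, the 12 genes with the lowest adjusted p came from several functions. The lowest was that of Rbm43, an RNA-binding protein, whose controls of 5.57, 5.82 and 5.59 became 7.07, 7.57 and 7.29, a rise of 1.65 ± 0.13 (adjusted p = 0.000281). Trafd1 went from 9.03, 8.71 and 8.71 to 10.01, 10.36 and 10.20. Mov10, an RNA helicase, went from 6.69, 6.79 and 6.79 to 7.65, 7.91 and 7.87, a rise of 1.06 ± 0.10. In these 3 genes the controls lay close together and far below the treated arrays. Adar had controls of 8.63, 8.50 and 8.56 and treated arrays of 9.56, 9.80 and 10.14. Eif2ak2 had controls of 7.50, 7.46 and 7.62 and treated arrays of 9.08, 9.70 and 9.71. Rnf114, a ubiquitin ligase, went from 9.03, 8.96 and 8.93 to 9.88, 10.22 and 9.94, a rise of 1.04 ± 0.10. In another set the control cultures differed from one another at 6 h and the pairs moved in parallel. Daxx, a histone chaperone, had controls of 8.48, 9.06 and 8.18 and treated arrays of 9.68, 10.56 and 9.36, with replicate 2 highest in both. The ubiquitin ligase Herc3 had controls of 5.70, 6.27 and 5.23 and treated arrays of 7.26, 8.17 and 7.09, in the same order. Fbxw17, an F-box protein, went from 5.49, 5.19 and 4.74 to 6.99, 7.55 and 6.71, a rise of 1.94 ± 0.18. Helz2, Parp10 and Parp12 complete the 12. All but Daxx also passed without the block (adjusted p of Daxx 0.74), and none of the 12 was lost without a single 6 h array.

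**Figure D3:**
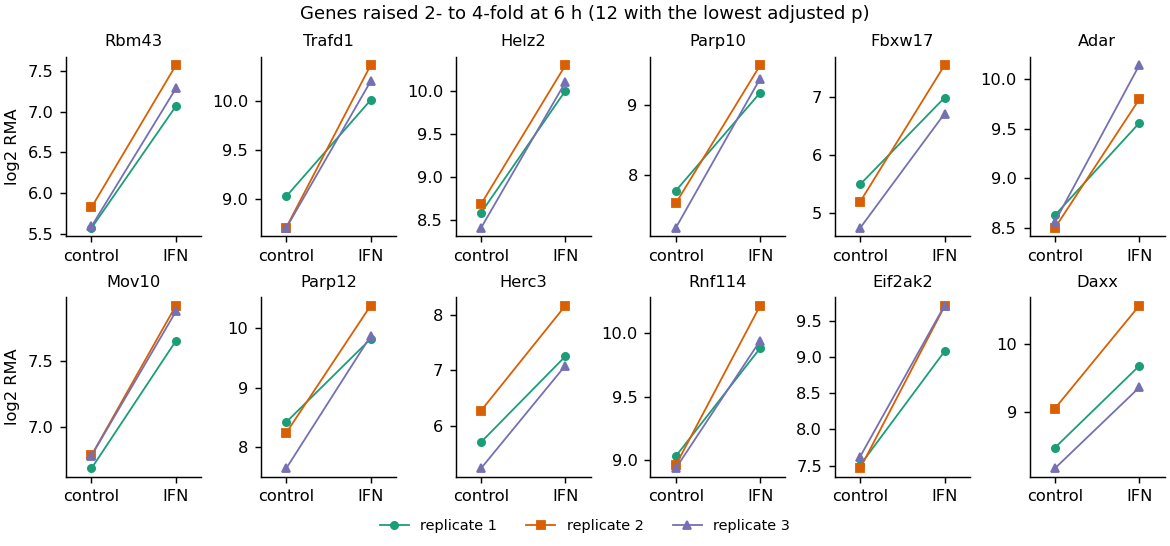
Level (vertical axes, log2 RMA, scaled per panel) in the control and interferon alpha (IFN) arrays at 6 h for the 12 genes raised 2- to 4-fold with the lowest adjusted p. Each line joins the 2 arrays of 1 replicate number. Every line rises, and in Daxx and Herc3 the lines are parallel with replicate 2 on top.

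Between 1.5- and 2-fold, the 10 genes with the lowest adjusted p included parts of membrane traffic, RNA handling and lipid transport. Vps54, of the complex that returns vesicles to the Golgi, went from 7.01, 7.07 and 6.81 to 7.79, 8.33 and 7.72, a rise of 0.98 ± 0.10 (adjusted p = 0.000456). Washc4, of the complex that builds actin on endosomes, went from 10.14, 10.23 and 10.51 to 10.79, 10.96 and 11.09, a rise of 0.66 ± 0.07. Pnpt1, an RNA-degrading enzyme of mitochondria, went from 9.91, 9.72 and 9.63 to 10.49, 10.88 and 10.88, a rise of 0.99 ± 0.13. The groups of these 3 genes did not overlap. Stard5, which binds cholesterol and bile acids, went from 7.49, 7.87 and 6.84 to 8.26, 8.93 and 7.79, a rise of 0.93 ± 0.10. Here the groups overlapped, because control replicate 2 lay above treated replicate 3, yet the pairs differed by 0.77, 1.06 and 0.95. Ogfr, a receptor of opioid growth factor, rose by 0.99 ± 0.11 and Nmi, a protein that binds STATs, by 0.68 ± 0.08, both with the core motif printed above. The surface protein Gypc rose by 0.88 ± 0.10 and Fmr1, an RNA-binding regulator of translation, by 0.68 ± 0.09, from 7.09, 7.51 and 7.27 to 7.69, 8.10 and 8.11. Tap2 and Sp140 complete the 10. Stard5, Tap2, Fmr1 and Washc4 missed the threshold without the block (adjusted p 0.069 to 1). None of the 10 was lost without a single 6 h array.

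Below 1.5-fold the 8 genes with the lowest adjusted p were small changes at high precision. Ankfy1, an effector of Rab5 on endosomes, went from 9.20, 9.12 and 9.44 to 9.71, 9.79 and 9.99, a rise of 0.58 ± 0.08. Cd47, the surface signal that restrains phagocytes, went from 10.05, 10.04 and 10.12 to 10.42, 10.71 and 10.70, a rise of 0.54 ± 0.08, and a second probe set of it rose by 0.75 ± 0.08. Med7, of the Mediator complex, went from 8.90, 9.09 and 9.26 to 9.53, 9.70 and 9.70, a rise of 0.56 ± 0.08. In these 3 genes every treated array lay above every control. In other genes of the band the pairs decided. Apaf1 had controls of 6.33, 6.52 and 6.94 and treated arrays of 6.82, 7.14 and 7.40, so that the highest control lay above the lowest treated array. Dnase1l3, a secreted DNase, had controls of 4.95, 6.23 and 4.34 against 5.58, 6.97 and 4.66, a rise of 0.56 ± 0.09. Mocs2, of molybdenum cofactor synthesis, rose by 0.45 ± 0.07, Tapbp by 0.54 ± 0.09 and Vipas39, of endosome sorting, by 0.49 ± 0.08. Only Cd47 also passed without the block; the other 7 did not (adjusted p 0.078 to 1). Without treated 2, control 2 or another single array, Apaf1, Mocs2, Dnase1l3, Tapbp and Vipas39 were lost (0.0509 to 0.0967).

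By band, fewer of the small rises than of the large ones also passed without the block. The counts were 23 of 26 at 8-fold and more, 35 of 49 at 4- to 8-fold, 43 of 87 at 2- to 4-fold, 17 of 120 at 1.5- to 2-fold and 2 of 47 below that. The numbers of non-overlapping groups were 26, 46, 83, 97 and 33 in the same order. Median control levels ran the other way, 6.62, 6.99, 7.42, 7.84 and 8.31, so the probe sets with the smaller called rises were brighter in the untreated cultures at 6 h.

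Some further genes were grouped by function after their values had been seen, so the groups are descriptions. Enzymes that add or remove RNA tails formed one such group among the middle-sized rises. The uridylyltransferases Tut4 and Tut7 rose by 0.87 ± 0.12 and 0.72 ± 0.11, the poly(A) polymerases Tent4a, Tent5a and Tent5c by 0.68 ± 0.12, 1.91 ± 0.24 and 1.29 ± 0.24, and Cnot9, of the deadenylase complex, by 1.36 ± 0.15. The exonuclease Xrn1 rose by 0.75 ± 0.10, the cap methyltransferase Cmtr1 by 0.63 ± 0.09 and the m6A reader Ythdf1 by 0.76 ± 0.14. Tut4 had controls of 8.14, 8.50 and 8.17 against 8.88, 9.50 and 9.04, and Tent5a had controls of 8.70, 8.46 and 9.74 against 10.53, 10.96 and 11.16. In both genes each treated array lay above each control. Among metabolic genes, Nampt, the rate-limiting enzyme of NAD salvage, rose by 0.99 ± 0.16, from 10.07, 9.13 and 9.19 to 10.59, 10.54 and 10.21. Nt5c3a, a pyrimidine nucleotidase, rose by 1.42 ± 0.18, and Upp1, uridine phosphorylase, by 0.61 ± 0.09. Glul, glutamine synthetase, rose by 0.64 ± 0.12 on its dimmest probe set. Its brighter ones stood at 0.29 and 0.33 and did not pass (adjusted p = 0.516 and 0.342). Ubd (FAT10), a ubiquitin-like tag for the proteasome, was bright in all cultures, at 12.10, 12.25 and 10.57, and rose to 12.82, 13.54 and 12.14, by 1.19 ± 0.16. Rfx5, a factor of MHC promoters, rose by 0.65 ± 0.13 and the growth factor Csf1 by 0.97 ± 0.11 on a probe set that is not its brightest, which stood at 0.33 and did not pass (adjusted p = 0.121). Of the genes in this paragraph all but Cnot9, Tent4a and Csf1 missed the threshold without the block (adjusted p 0.064 to 1). Tut7, Tent4a, Tent5c, Ythdf1, Nampt, Glul and Rfx5 were lost without treated 2, control 2 and, for most, other single arrays (0.0516 to 0.275).

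Where the array holds several probe sets for a gene, they mostly moved together. Of 78 such genes with a higher probe set, 39 had all their probe sets called. The remaining ones had 56 probe sets that were not called, of which 49 were above 0 and 37 had an unadjusted p under 0.05. Among these were dimmer probe sets of Vipas39 (0.20), Apaf1 (0.24), Tent4a (0.30 and 0.32) and Spats2l (0.88). Of the 78 genes 8 were called only on a probe set that was not the brightest, among them Azi2, whose brightest one missed narrowly (0.53 ± 0.12, adjusted p = 0.0646).

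The falls were few, small and tied to the pairing. The fall with the lowest adjusted p among named genes was that of Etfbkmt, a lysine methyltransferase of the mitochondrial electron transfer flavoprotein. One probe set of it went from 4.42, 4.60 and 4.99 to 3.68, 3.92 and 4.27, a difference of -0.71 ± 0.09 (adjusted p = 0.00154), with all treated arrays below all controls. This is a dim probe set, and the brighter one of the gene stood at -0.34 and did not pass (adjusted p = 0.472). Klf15, a transcription factor of gluconeogenesis and amino acid breakdown, went from 8.90, 8.79 and 7.73 to 8.48, 8.40 and 6.98 on one probe set, a difference of -0.52 ± 0.10 (adjusted p = 0.0343). Replicate 3 was low in both groups, so the groups overlapped while each pair fell. The brightest probe set of Klf15 stood at -0.38 (adjusted p = 0.131) and another one at -0.02. Crybg2, a protein with crystallin domains, went from 6.06, 6.45 and 5.67 to 5.58, 5.97 and 5.12, a difference of -0.50 ± 0.09 (adjusted p = 0.0150). It is the only gene called lower on its brightest probe set. Lmbr1l, a membrane receptor that regulates Wnt signalling, went from 6.06, 5.83 and 6.02 to 5.51, 5.41 and 5.60, a difference of -0.47 ± 0.08 (adjusted p = 0.0176), while 2 other probe sets of it stood at -0.06 and -0.26. The remaining 7 lower probe sets carry no gene name here and differed by -0.37 to -0.49. None of the 11 passed without the block (adjusted p of the named ones 0.14 to 1). Klf15, Crybg2 and Lmbr1l were each lost without at least 5 of the 6 single 6 h arrays (0.0516 to 0.187), while Etfbkmt passed without each of the 6 and was lost only without all arrays of replicate 2 (0.0713).

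**Figure D4:**
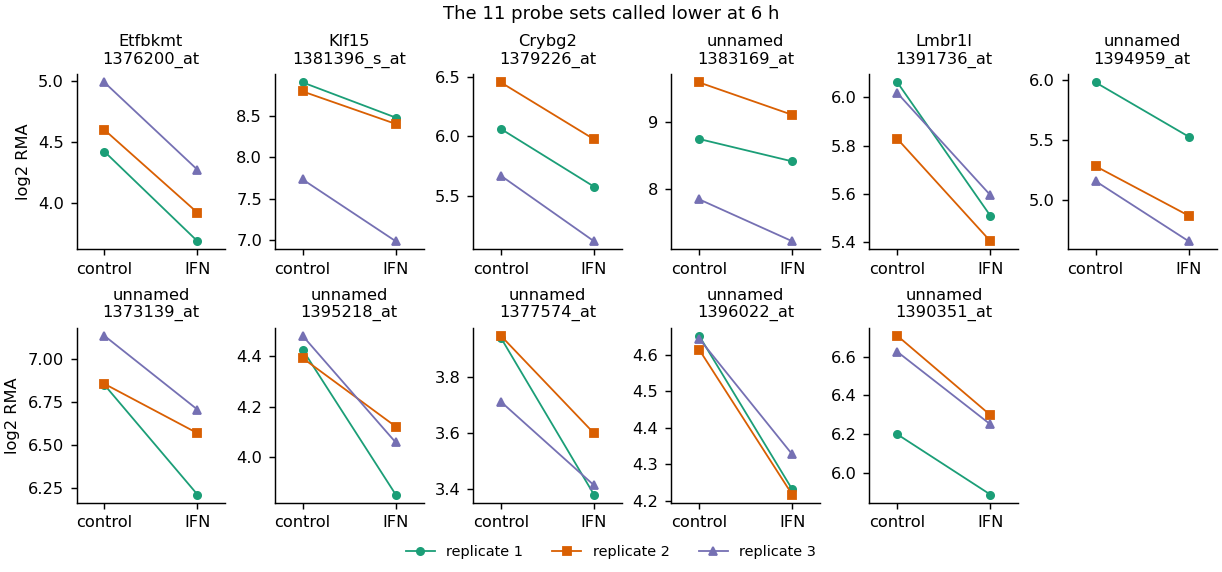
Level (vertical axes, log2 RMA, scaled per panel) in the control and interferon alpha (IFN) arrays at 6 h for the 11 probe sets called lower, 4 with a gene name and 7 without. Each line joins the 2 arrays of 1 replicate number. Every line falls, and in Klf15 and Crybg2 the cultures lie farther apart than the fall within a pair.

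Below the threshold, 159 of 14217 genes had an unadjusted p under 0.05 and all treated arrays below all controls. Over all probe sets 3.46% had all treated arrays below all controls. The 159 were picked by both traits, so their number is no result about falls. The 10 largest of their falls are given as values. Stard13 had controls of 6.65, 6.92 and 6.69 and treated arrays of 6.58, 6.09 and 6.02, a difference of -0.53 ± 0.12 (adjusted p = 0.0835). Phrf1, a ubiquitin ligase, had controls of 7.16, 7.15 and 7.22 against 6.73, 6.54 and 6.93, a difference of -0.44 ± 0.10 (adjusted p = 0.0640). Tshz1, a zinc finger factor, had controls of 6.45, 6.67 and 6.93 against 6.22, 6.21 and 6.41, a difference of -0.41 ± 0.09 (adjusted p = 0.0620). These 3 were the closest to the threshold, with Adarb1 (ADAR2), the paralogue of the raised Adar, next at -0.38 ± 0.09 (adjusted p = 0.0920). Amigo1 (-0.50), Kiaa1671 (-0.46), Tubb1 (-0.44), Pim2 (-0.42), Ildr1 (-0.39) and C5h1orf174 (-0.35) had adjusted p of 0.152 to 0.335. With a block for each replicate within each time, Phrf1, Kiaa1671 and Amigo1 were called lower (adjusted p = 0.0409, 0.0249 and 0.0489). Over all probe sets 1193 (3.84%) had an unadjusted p under 0.05 and were lower, and 1346 (4.34%) were higher.

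Genes of hepatocyte function were called about as seldom as genes in general. On 12 lists of liver transcription factors, secreted proteins, detoxification, transport and metabolism there were 326 distinct genes. On their brightest probe set 3 were higher and 0 lower, against 1.45% and 0.00703% of all genes. Neither count is a result about these genes. Klf15, on these lists, was lower on another probe set, as given above. The 3 were Gata6, an endoderm transcription factor (0.61 ± 0.12), the complement component C6 (0.82 ± 0.11) and Fkbp5, a glucocorticoid-induced chaperone partner (0.52 ± 0.10). A second, dimmer probe set of Gata6 stood at 0.04 and did not pass (adjusted p = 0.929). C6 went from 9.97, 9.42 and 9.49 to 10.44, 10.51 and 10.39, and its groups did not overlap. The median change of the 326 was -0.04, against -0.02 over all genes, and 89.6% changed by under 0.2 in size, against 88.8%. A small excess of negative signs was present: 103 (31.6%) were below 0 in all 3 pairs, against 20.9% of all genes, and 27 (8.28%) above 0 in all 3, against 13.4%. The median level of the 326 was 10.4, against 6.65 over all genes. At an unadjusted p under 0.05, 13 of the 326 were lower and 14 higher. Over all probe sets 3.84% were lower and 4.34% higher at that limit, so these counts are no result either. The lowest value was that of Cyp7a1, the rate-limiting enzyme of bile acid synthesis, with controls of 10.11, 10.44 and 4.68 and treated arrays of 9.95, 9.20 and 4.15. Its cultures thus differed far more between replicates than between treatments, and -0.64 ± 0.43 did not pass (adjusted p = 0.753). Nr1i3 (CAR), a drug-sensing receptor, stood at -0.53 ± 0.16 (adjusted p = 0.280), with controls of 7.78, 8.65 and 7.26 against 7.48, 7.66 and 6.96. Cpt1a, the entry enzyme of fatty acid oxidation, stood at -0.32, Cyp8b1 at -0.32 and Cyp1a1 at -0.33, none past the threshold. With the block within each time, another probe set of Cpt1a was called lower (-0.40, adjusted p = 0.0392, against 0.436 in the main model). The lists of stress response (27 measured), heat shock (14), clock (18), immediate early (25), cell cycle (29) and iron and BMP genes (21) held 0 called genes. With 1.45% of all genes called higher, counts of 0 in such short lists are no result about them. Id3, a target of BMP signalling on the iron list, stood at 1.18 ± 0.28 with non-overlapping groups and did not pass (adjusted p = 0.103). C6, Gata6 and Fkbp5 missed the threshold without the block (adjusted p 0.070 to 1). Gata6 was lost without any single 6 h array and Fkbp5 without treated 2 or 3 or control 2 or 3 (0.0510 to 0.273).

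The 3 h arrays give the values of these probe sets at an earlier time. They are other arrays than those of the 6 h contrast but share its replicate numbers and its fit, and deviations of the same number correlated at 0.479 to 0.736 across the times. Of the 329 probe sets 315 were above 0 at 3 h, 245 were above 0 in all 3 pairs, against 14.4% of all probe sets, and 24 were called higher at 3 h, against 0.0934% of all, while 0.00322% of all were called lower there. By band the median 3 h change was 2.02 at 8-fold and more, 1.08 at 4- to 8-fold, 0.66 at 2- to 4-fold, 0.25 at 1.5- to 2-fold and 0.13 below. The 3 h change was a median of 57.4%, 47.3%, 44.2%, 32.2% and 26.7% of a probe set's 6 h change in the same order. The middle-sized genes were thus at a smaller part of their 6 h value at 3 h. Since the probe sets were chosen by their 6 h values, this order is a description. Only 7 of the 329 were at least as high at 3 h, among them Cxcl10 (4.98 against 4.36), both called probe sets of Ncoa7 (3.35 against 2.61 and 2.66 against 2.15) and Irf1 (2.24 against 2.22). At the other end, Spats2l stood at 0.36 at 3 h and 2.19 at 6 h, Herc3 at 0.35 and 1.77, and Ezr at 0.10 and 1.08. The test of the difference between the times called 0 of 31042 probe sets, with 1466 (4.72%) at an unadjusted p under 0.05. Of the 11 lower probe sets 8 were below 0 at 3 h and 4 were below 0 in all 3 pairs, against 20.3% of all. Etfbkmt stood at -0.14 at 3 h, Klf15 at -0.09, Crybg2 at -0.06 and Lmbr1l at -0.07.

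**Figure D5:**
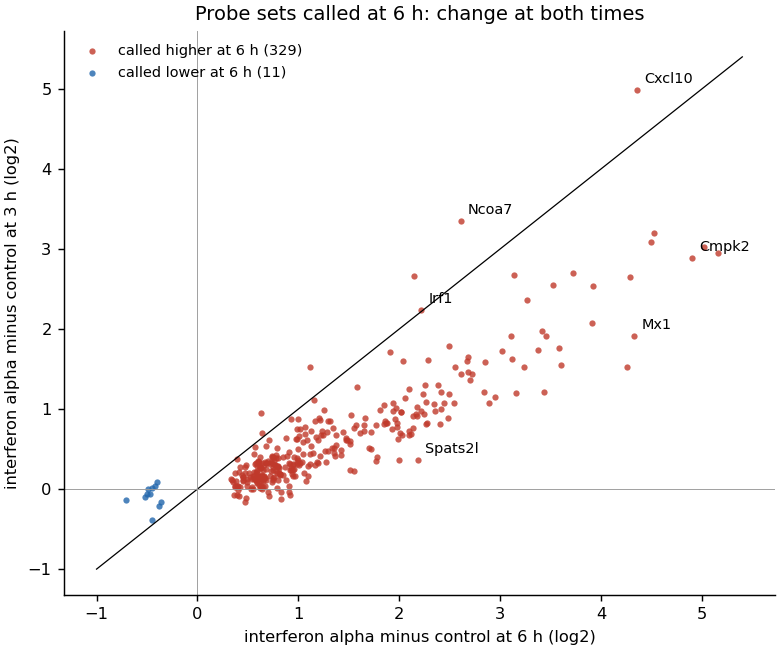
Difference between interferon alpha and control at 6 h (horizontal axis, log2) and at 3 h (vertical axis, log2) for the 340 probe sets called at 6 h. The line marks equal differences. Of the 329 higher probe sets (red) all but 7 lie below it, and the 11 lower ones (blue) lie between -0.39 and 0.08 at 3 h.

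The 3 pairs did not respond to the same extent. Over the 329 higher probe sets the median rise was 0.77 in replicate 1, 1.25 in replicate 2 and 0.99 in replicate 3. Replicate 1 had the smallest of the 3 rises for 240 probe sets and replicate 2 the largest for 220. Both sides of the pair took part: median control levels of these probe sets were 7.71, 7.57 and 7.43, and median treated levels 8.71, 9.28 and 8.82. At 3 h the same probe sets had median rises of 0.13, 0.65 and 0.48, the smallest again in replicate 1. Over all probe sets the median pair difference at 6 h was -0.01 or -0.02 in each replicate. The 11 lower probe sets had medians of -0.48, -0.41 and -0.43.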

How the data were processed

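Total RNA of 12 cultures was labelled and hybridised to Affymetrix arrays. The deposited values are on a log2 scale, 1 per probe set. Per the submitters' processing notes they come from RMA, with affy and R 2.10.0. This method forces all arrays to 1 intensity distribution, which would hide a change common to most transcripts. Array medians at 6 h ran from 5.18 to 5.21, and 3 arrays per group limit the precision.

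The 57 control probe sets were left out. The model was limma 3.58.1 in R 4.3.3 (lmFit, eBayes; two-sided), 4 groups of 12 arrays with the replicate number as a block and 6 residual degrees of freedom. Benjamini-Hochberg adjustment covered 31042 probe sets. The pairing was checked on deviations from group means: these correlated at 0.651 to 0.829 in the 6 pairs that share number and time, and between different numbers at -0.562 to -0.0747, and 0 pairs of arrays were identical. The labels call the samples biological replicates without saying whether animals or dishes differ, so what the spread stands for is not known. The p-values rest on the spread among these samples that is left after group and replicate number, pooled over both times. A called probe set has an adjusted p under 0.05, and fits were tested on simulated data.

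Gene names came from the platform annotation: 20826 probe sets had 1 symbol, 436 several and 9780 were not listed. The 20758 matched by Entrez identifier to RefSeq genes of GRCr8 kept their symbols. The gene named Rig1 there is the RNA receptor RIG-I.

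The comparison, the 43 gene lists and the tests were chosen with earlier results of these data known. Named genes were every gene with a lower probe set; by lowest adjusted p, 6, 12, 10 and 8 genes of the bands 4- to 8-, 2- to 4-, 1.5- to 2- and under 1.5-fold, and the 4 largest rises; up to 5 called genes per list by adjusted p or, with none called, the 2 brightest; and the 10 largest falls that did not pass. Any other gene named, including further list members, was chosen after its values were seen. Alternatives were no block, a block within each time, the 6 h arrays alone, limma-trend, array weights, a level filter, median centring, repeated quantile normalization, the mean over probe sets, and leaving out arrays.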

Additional observations from a re-analysis of the deposited data

How the results depend on the processing

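Replicate numbers were used as a block. With no replicate block, 120 of 31042 probe sets were higher, all of them among the 329, 60 were higher by 1.5- to 4-fold against 207, and 0 were lower against 11, so all 11 falls and most of the middle-sized rises were called only with the pairing. With the block within each time 19 were lower, 7 of them among the 11, with the 6 h arrays alone 5, with limma-trend 17 and with array weights 4. The mean over a gene's probe sets gave 206 higher genes, as the brightest probe set did, and 6 lower against 1. Leaving out arrays gave 99 to 303 higher, 52 to 192 higher by 1.5- to 4-fold and 0 to 26 lower probe sets, with fewest higher without replicate 3. Under median centring 327, and under repeated quantile normalization 316, of the 329 stayed higher. Of 272 called probe sets with a symbol, 152 passed without each single 6 h array and 60 also without each replicate number. None of these 272, nor the 10 falls that did not pass, changed direction under the block, array, level, centring and normalization alternatives (268 of the 282 were tested under the level filter). Other uncalled genes, and single genes by the mean over probe sets, were not followed. The cause of these differences was not tested.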
